A study of Mus musculus with 60 samples.

Results

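The tripartite motif (Trim) genes encode a large family of ubiquitin ligases, and 58 of the 18193 genes with a name on these arrays carried a symbol made of Trim, a number and an optional letter. They were measured by 111 of 45037 probe sets, counting only probe sets with a single gene symbol. Another 5 probe sets named a Trim gene together with a second gene and were set aside. The 7 genes Trim5, Trim6, Trim12a, Trim12c, Trim30a, Trim30d and Trim34a lie side by side on chromosome 7 (13 probe sets) and were compared with the other 51 genes (98 probe sets). Below, the chromosome 7 genes means these 7 only. Of the other 51, 6 are also on chromosome 7 (Trim3, Trim21, Trim28, Trim66, Trim68 and Trim72) and were counted with the others. RNA came from uncultured, untreated, unfractionated spleen leukocytes of 30 female mice. The 3 inbred strains gave 5 mice each at an age of 2 weeks and 5 each at 4 weeks. The NOD strain develops autoimmune diabetes without any treatment, NON is a diabetes-resistant strain related to NOD, and C57BL/6 (C57) is a more distant control. No genotype was altered and no agent was given in any group. The values are MAS 5.0 signals on a linear scale. Probe sets were kept for testing where 5 or more of the 30 mice had a signal of 50 or more. This kept 96 Trim probe sets of 53 genes, 12 of them from the chromosome 7 genes (all 7 genes) and 84 from 46 of the others.

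A Trim protein is built from a RING domain, which carries the ubiquitin ligase activity, a B-box and a coiled coil, followed by a variable C-terminal part. In many members this is a PRY-SPRY (B30.2) domain, which binds the target. The 7 chromosome 7 members compared here were placed in that class by name. No protein sequence was examined, so whether each of them, Trim12a included, carries the domain was not checked. The group is best known from primate TRIM5, which recognises the capsid of incoming retroviruses, and rodents carry several related copies in place of a single gene. Many Trim genes are induced by interferon, and several of their products act on the signalling that leads to NF-kB or to interferon itself. Trim30a, for example, is a negative regulator of NF-kB signalling that acts on the adaptors Tab2 and Tab3.

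The promoters of the chromosome 7 genes are shown first, because the members share a short element there and because some of them are alike over all the bases printed. The interferon-stimulated response element is bound by the factors that act downstream of the interferon receptor. Its core was searched as GAAANNGAAA on both strands, overlapping matches included, in RefSeq promoters of 300 bases (GRCm38.p6, from 250 bases before to 50 after the start). It was found at 6 of the 7 chromosome 7 genes and at 3 of the 40 other Trim genes with a promoter entry (Trim2, Trim21 and Trim26). Of all 32851 promoters, 3.44% held it, and of all 27025 genes with an entry, 3.99% had it in at least 1 promoter. Of the 16 interferon-inducible genes listed below that had an entry, 9 did. The 30 bases around each match are printed on the strand of the gene, 5′ to 3′, with the match in capitals.
Trim34a (chr7:104244457-104244486, plus strand): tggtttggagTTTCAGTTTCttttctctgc
Trim5 (chr7:104288136-104288165, minus strand): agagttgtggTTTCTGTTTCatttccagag
Trim12a (chr7:104315466-104315495, minus strand): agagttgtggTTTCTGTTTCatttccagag
Trim12c (chr7:104353359-104353388, minus strand): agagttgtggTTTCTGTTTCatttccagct
Trim30a (chr7:104446104-104446133, minus strand): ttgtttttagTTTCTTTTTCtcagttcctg
Trim30a (chr7:104465210-104465239, minus strand): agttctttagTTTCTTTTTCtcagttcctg
Trim30d (chr7:104507871-104507900, minus strand): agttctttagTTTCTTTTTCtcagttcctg
Counting the start as base 1, the match began at base 11 in Trim34a and Trim12a, at base -49 in Trim5, at base -29 in Trim12c, at base -41 in Trim30d and at bases 3 and -36 in the promoters of the 2 Trim30a starts. The printed stretches of Trim5 and Trim12a were identical at 30 of 30 bases, and that of Trim12c matched each of them at 28. The stretch of Trim30d was identical to 1 of the Trim30a stretches (30 of 30). Between the Trim12a and Trim30d stretches 15 of 30 bases were the same. The window of Trim6 held no match. A match is a description of these letters only, since binding was not measured here.

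The study measured genes it called Trim5 and Trim12 by quantitative PCR, and its primers are printed here because they share runs of bases between these genes, with the run shared within a primer pair in capitals.
Trim5 left primer: ggcCACAAAACagctctcat
Trim12 left primer: agcaccgtggtCACAAAAC
Trim5 right primer: TCAGCCTTTGCAGAACTacct
Trim12 right primer: ccaTCAGCCTTTGCAGAACT
The right primers shared 17 bases and the left primers 8. Probe sequences were not analysed here, so each signal below is that of a named probe set and may hold binding from a related transcript. The probe set that the study called Trim5 (1443858_at) is Trim12c in the annotation used here.

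The 60 arrays were alike in scale (2% trimmed mean of 250 on each). The mouse labelled NOD replicate 3 at 4 weeks had a median correlation of 0.739 with the other mice of its group, against 0.847 to 0.859 for those mice. The 3′ to 5′ signal ratio of Gapdh, a sign of RNA degradation, was highest in NON replicate 2 of 2 weeks (4) and NON replicate 1 of 4 weeks (3.15). Over both ages it ran from 0.74 to 1.3 in the NOD mice, from 0.75 to 4 in NON and from 0.8 to 2.4 in C57. The part of this strain difference in the Trim signals was not tested. Leaving out 1 of the 3 mice named here changed some pairwise calls of its own strain. For the chromosome 7 genes, Trim21 and Trim25 the changed values are given beside the calls. Ptprc, the common leukocyte antigen, had signals of 2530 to 12500 over the 30 mice (1422124_a_at).

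The strain differences of the Trim family were found almost wholly in the row of 7 genes on chromosome 7, and there mostly as low signals in NOD. In an F-test over the 3 strains with limma's moderated variances (Benjamini-Hochberg adjusted p under 0.05 over all 38293 kept probe sets), 6 of the 12 chromosome 7 probe sets differed at 2 weeks and 7 of 12 at 4 weeks. Of the 84 other Trim probe sets, 1 differed at 2 weeks and 1 at 4 weeks. Over all kept probe sets, 1.66% were called at 2 weeks and 1.51% at 4 weeks. The share of the other members (1.19% at either age) was therefore near that of the whole array, and the share of the chromosome 7 members (50% and 58.3%) was not. Without NON replicate 2, the 2 week count for chromosome 7 was 6. Without NOD replicate 3, the 4 week count was 6 and without NON replicate 1 it was 7.

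The direction was read from pairwise contrasts on log2(signal + 10). At 2 weeks, 6 of the 12 chromosome 7 probe sets were lower in NOD than in C57 (0.512% of all kept probe sets were), 2 were lower in NOD than in NON (0.222%) and 2 were lower in NON than in C57 (0.990%). At 4 weeks, 6 were lower in NOD than in NON (0.311%), 6 were lower in NOD than in C57 (0.666%), and 1 was higher in NON than in C57 (0.321%). No chromosome 7 probe set was called higher in NOD, against 0.324% (than NON) and 0.329% (than C57) of all kept probe sets at 2 weeks and 0.272% and 0.462% at 4 weeks. Of the 84 other Trim probe sets, 1 was lower in NOD than in C57 at each age, 1 was lower in NOD than in NON at 4 weeks, and at 2 weeks 1 was lower and 1 higher in NON than in C57 (0.569% of all kept probe sets were higher). At unadjusted p under 0.05, 5 and 9 of the 12 chromosome 7 probe sets differed between NOD and NON at 2 and 4 weeks (9.45% and 10.7% of all kept probe sets did), and 9 and 9 between NOD and C57 (11.7% and 13.0%). The median difference of the 12 probe sets between NOD and NON was -0.70 at 2 weeks and -1.40 at 4 weeks. Between NOD and C57 it was -1.05 and -1.53. For the 84 other probe sets these medians were 0.04, -0.03, 0.08 and -0.04, and for all kept probe sets 0.05, 0.04, 0.07 and 0.04. NOD had the lowest mean of the 3 strains for 10 of the 12 probe sets at each age, against 19 of the 84 others at 2 weeks and 33 at 4 weeks. This order was not counted over all kept probe sets.

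**Figure D1:**
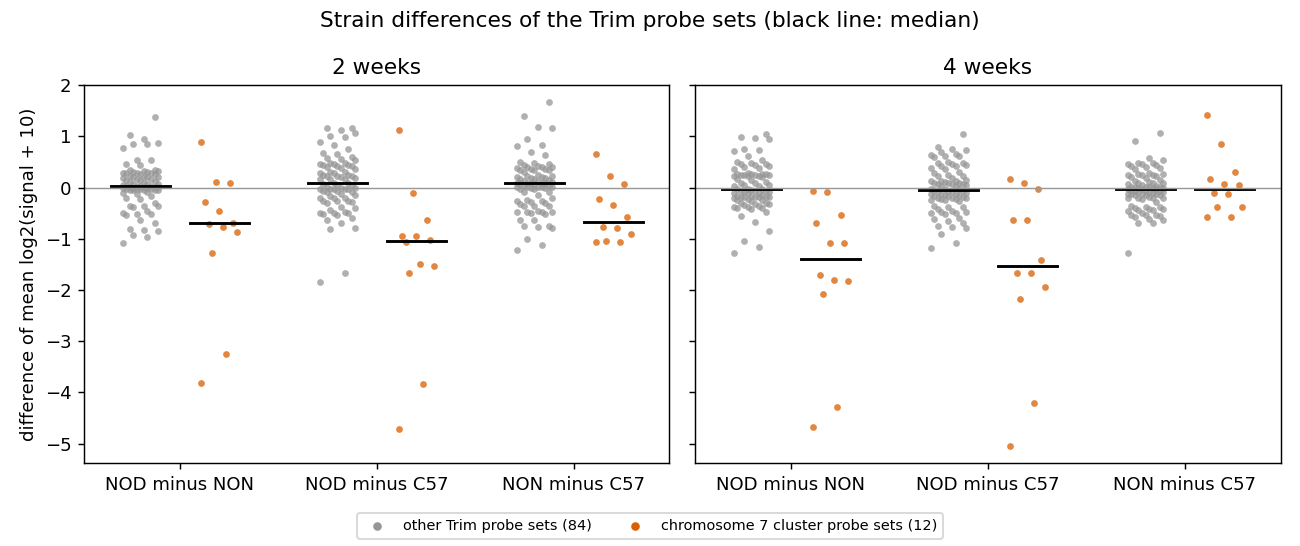
Difference between strain means on the log2(signal + 10) scale (vertical axis) for each contrast and age, with 1 point per kept Trim probe set and a black line at the median. The 12 chromosome 7 probe sets reach -5.04 in NOD minus C57 at 4 weeks, while the 84 others lie between -1.84 and 1.17 in the NOD minus C57 contrasts.

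Trim12a had the smallest p of the family at both ages. It belongs to the rodent genes related to primate TRIM5. The signal of 1437432_a_at at 2 weeks was, in order of replicate number, 5.5, 5.9, 4.8, 13.3 and 11.6 in the NOD mice, 201, 188, 223, 165 and 75 in the NON mice and 286, 330.3, 338, 195 and 141 in the C57 mice. At 4 weeks it was 1.9, 3.3, 13.2, 4.5 and 5.2 in the NOD mice, 329, 309, 293, 195 and 333 in the NON mice and 328, 409, 337, 191 and 167 in the C57 mice. Every NOD mouse lay below every mouse of both control strains at both ages, and none of the 10 NOD mice was above 13.3. The mean was 8.22 ± 3.93 (SD, n = 5) in NOD, 170 ± 57.2 in NON and 258 ± 86.7 in C57 at 2 weeks, and 5.62 ± 4.42, 292 ± 56.3 and 286 ± 103 at 4 weeks. The log2 difference from NON was -3.25 ± 0.30 (SE) at 2 weeks (limma adjusted p = 2.8e-05) and -4.29 ± 0.27 at 4 weeks (adjusted p = 7e-07). From C57 it was -3.84 ± 0.30 (adjusted p = 5.2e-06) and -4.21 ± 0.27 (adjusted p = 7.6e-07). NON and C57 differed by 0.08 ± 0.27 at 4 weeks (adjusted p = 0.96).

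Since all 10 NOD signals were under 50, the ratio of means depends on a few units of signal. Against a signal of 50, the controls were at least 3.41-fold (NON) and 5.16-fold (C57) higher at 2 weeks, and at least 5.84-fold and 5.73-fold higher at 4 weeks. By the strain F-test the probe set ranked 24 of 38293 at 2 weeks and 9 at 4 weeks. The other Trim12a probe set, 1420648_at, was dim in all strains, with group means from 15.8 to 42.2, and was not called (F-test adjusted p = 0.14 and 1).

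Trim12c shares most of the printed promoter stretch with Trim12a and Trim5. On 1443858_at the signal at 2 weeks was 57.3, 22.6, 2.5, 87.8 and 47.6 in the NOD mice, 845, 687, 560.4, 651 and 366 in the NON mice and 1007, 1195, 1321, 964 and 1179.5 in the C57 mice. At 4 weeks it was 27.9, 7.5, 268, 8.2 and 12.7 in the NOD mice, 1319, 670.1, 1404, 787 and 789 in the NON mice and 1128, 1003, 1465, 1446 and 1186 in the C57 mice. All NOD mice lay below all control mice at each age, and NOD replicate 3 of 4 weeks, at 267.6, stood far above the other 4 NOD mice (7.5 to 27.9). At 2 weeks the NOD mean was 43.6 ± 32.7 (SD, n = 5), the NON mean 622 ± 176 and the C57 mean 1130 ± 147. The log2 differences of NOD from NON and C57 were -3.81 ± 0.43 (SE) and -4.71 ± 0.43 (limma adjusted p = 0.00022 and 2e-05). Since 3 of the 5 NOD mice and their mean were under 50, NOD was set at 50, and against this NON was at least 12.4-fold and C57 at least 22.7-fold higher. At 4 weeks the NOD mean was 64.8 ± 114, against 994 ± 340 in NON and 1250 ± 203 in C57, with ratios of means of 15.3 and 19.2 that rest on NOD replicate 3. The other 4 NOD mice were under 50 (mean 14.1 ± 9.5). For these 4 only, set at a signal of 50, NON was at least 19.9-fold and C57 at least 24.9-fold higher. The log2 difference of NOD from NON was -4.67 ± 0.59 with replicate 3 (adjusted p = 0.00091) and -5.39 ± 0.28 without it (adjusted p = 4.1e-07). The mice of NON lay wholly below those of C57 at 2 weeks, but the contrast was not called (-0.90 ± 0.43, adjusted p = 0.36).

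The other Trim12c probe set, 1445271_at, had the same order of strains with smaller steps. Its 2 week signals were 174, 207, 137, 139.6 and 115 in the NOD mice, 433, 199, 764, 403 and 298 in the NON mice and 313, 762, 540.3, 401 and 338 in the C57 mice. Its 4 week signals were 104, 118, 108, 260.1 and 216 in the NOD mice, 211, 602, 857, 1018 and 439 in the NON mice and 511, 798, 739, 468 and 1272 in the C57 mice. NOD and NON overlapped at each age, and NOD and C57 did not. NOD was 3.05-fold lower than C57 at 2 weeks (log2 difference -1.50 ± 0.33 (SE), limma adjusted p = 0.045) and at 4 weeks 4.69-fold lower (-2.17 ± 0.41, adjusted p = 0.017). Against NON the differences were -1.28 ± 0.33 (adjusted p = 0.12) and -1.80 ± 0.41 (adjusted p = 0.073). The latter were called without NON replicate 2 of 2 weeks (-1.50 ± 0.31, adjusted p = 0.049) and without NON replicate 1 of 4 weeks (-2.13 ± 0.36, adjusted p = 0.018). The calls from C57 were lost in 16 of 23 alternatives at 2 weeks and in 3 at 4 weeks.

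Trim5, as named in the annotation, was measured by 1442693_at alone, and at 4 weeks it was NON that stood apart. Its 4 week signals were 309, 526, 154, 268 and 264 in the NOD mice, 1073, 1086, 1175, 1098 and 1768 in the NON mice and 389.8, 449, 441, 544 and 427 in the C57 mice. Every NON mouse lay above every mouse of the other strains. NON had a mean of 1240 ± 298, NOD of 305 ± 137 and C57 of 450 ± 57.2 (SD over 5 mice). The log2 difference of NOD from NON was -2.07 ± 0.26 (SE, limma adjusted p = 0.0011), that of NON from C57 was 1.42 ± 0.26 (adjusted p = 0.017), and that of NOD from C57 was -0.64 ± 0.26 (adjusted p = 0.31). At 2 weeks the signals were 472, 516, 252, 295 and 288 in the NOD mice, 592, 1528, 629, 432 and 257 in the NON mice and 348, 768, 489.7, 681 and 548 in the C57 mice. The strains overlapped there (F-test adjusted p = 0.54), and NON replicate 2, at 1528, had the highest signal.

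Trim34a had graded mean levels on 1 probe set, with NOD lowest and C57 highest, though not every step was called. The signal of 1424857_a_at at 2 weeks was 305, 293, 276, 289.6 and 268 in the NOD mice, 481, 498, 515, 420.1 and 186 in the NON mice and 783, 802, 1152, 828 and 722 in the C57 mice. At 4 weeks it was 289, 528, 357, 388 and 364 in the NOD mice, 858, 766, 834, 760.4 and 821 in the NON mice and 1459, 1175, 1409, 1065 and 1028 in the C57 mice. The 3 strains did not overlap at all at 4 weeks, with means of 385 ± 88.1, 808 ± 43 and 1230 ± 197 (SD, n = 5). NOD was 3.19-fold lower than C57 (log2 difference -1.66 ± 0.18 (SE), limma adjusted p = 0.00017) and 2.1-fold lower than NON (-1.08 ± 0.18, adjusted p = 0.013). NON against C57 was not called (-0.58 ± 0.18, adjusted p = 0.24). At 2 weeks NOD was 2.99-fold lower than C57 (-1.53 ± 0.25, adjusted p = 0.0054), and NON was 2.04-fold lower than C57 (-1.07 ± 0.25, adjusted p = 0.044), a call lost in 16 of 23 alternatives. NOD and NON overlapped at 2 weeks, and their difference was not called (-0.46 ± 0.25, adjusted p = 0.6). NON replicate 5 of 2 weeks, at 186.3, was the lowest of the 15 mice. The second probe set, 1426093_at, was dim (group means from 30.4 to 65.8) and was not called (F-test adjusted p = 0.64 and 0.68).

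Trim30a, the regulator of NF-kB signalling, had a lower mean in NOD than in C57 on both probe sets at each age. The probe sets were called at different ages and did not agree in the place of NON. The 4 week signals of 1417961_a_at were 265, 502, 400.1, 405 and 514 in the NOD mice, 1291, 1481, 1204, 1351 and 1452 in the NON mice and 1177, 1269, 792, 815 and 1632 in the C57 mice. The highest NOD mouse was at 514 and the lowest control mouse at 792. NOD was 3.25-fold lower than NON (log2 difference -1.71 ± 0.23 (SE), limma adjusted p = 0.0019) and 2.73-fold lower than C57 (-1.41 ± 0.23, adjusted p = 0.0068). At 2 weeks its signals were 237, 286, 516, 438 and 587 in the NOD mice, 729.9, 631, 583, 597 and 650.1 in the NON mice and 674, 819.6, 1338, 721 and 648 in the C57 mice. That F-test was not passed (adjusted p = 0.12), although all NOD mice were lower than all C57 mice.

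The other Trim30a probe set, 1451860_a_at, was called at 2 weeks only (F-test adjusted p = 0.023 and, at 4 weeks, 0.13). Its 2 week signals were 410.4, 472, 346, 406 and 457 in the NOD mice, 536, 417, 444, 294 and 298 in the NON mice and 796, 573, 995, 828 and 947 in the C57 mice. NOD and NON lay together, and both lay wholly below C57. NON was 2.08-fold lower than C57 (log2 difference -1.05 ± 0.21 (SE), limma adjusted p = 0.019) and NOD 1.98-fold lower (-0.95 ± 0.21, adjusted p = 0.049, lost in 15 of 23 alternatives). At 4 weeks the NOD mean was 578 ± 110, the NON mean 832 ± 33.9 and the C57 mean 904 ± 126 (SD over 5 mice). Whether the 2 ages differ in this respect was not shown by the test of strain by age (adjusted p = 0.60).

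Trim30d is the neighbour of Trim30a and shares the printed promoter stretch with it. The 2 week signals of 1435665_at were 557, 540.2, 321, 458 and 455 in the NOD mice, 998, 1081, 1023, 739 and 521 in the NON mice and 1534, 1142, 1289, 1856 and 1619 in the C57 mice. Its 4 week signals were 471, 786, 112, 424 and 538 in the NOD mice, 1707, 1352, 1756, 1145 and 1300.3 in the NON mice and 1359, 1524, 2079, 1708 and 1251 in the C57 mice. NOD lay wholly below C57 at both ages and wholly below NON at 4 weeks, with 1 NOD mouse (replicate 3 of 4 weeks, at 112.3) far under the rest. NOD was 3.19-fold lower than C57 at 2 weeks (log2 difference -1.66 ± 0.23 (SE), limma adjusted p = 0.0018) and at 4 weeks 3.4-fold lower (-1.95 ± 0.38, adjusted p = 0.022). Against NON it was 3.11-fold lower at 4 weeks (-1.83 ± 0.38, adjusted p = 0.046). Without NOD replicate 3, the 4 week differences were -1.51 ± 0.23 from C57 (adjusted p = 0.004) and -1.39 ± 0.23 from NON (adjusted p = 0.011). Without NON replicate 1, the call from NON was lost (-1.76 ± 0.42, adjusted p = 0.1), and it was lost in 17 of 23 alternatives in all, against 4 of 23 for the 4 week call from C57. The second probe set, 1438716_at, had group means from 32.7 to 120 and was not called (F-test adjusted p = 0.36 and 0.24).

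Trim6, at 1 end of the row of genes and with no element match in its promoter, was the only 1 of the 7 genes with no call at either age. Its kept probe set, 1453624_at, had signals of 103, 239.5, 193, 317 and 170.4 in the NOD mice, 49.8, 112, 20.5, 232 and 279.8 in the NON mice and 132, 75.4, 35.7, 112 and 92.6 in the C57 mice at 2 weeks. The strains overlapped, and NOD had the highest mean (204 ± 79.7, SD, n = 5, against 139 ± 113 and 89.7 ± 37, F-test adjusted p = 0.49). At 4 weeks the means were 180 ± 126, 165 ± 65.9 and 168 ± 113 (adjusted p = 0.98). The second Trim6 probe set, 1424448_at, failed the filter, with group means from 26.3 to 31.7.

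**Figure D2:**
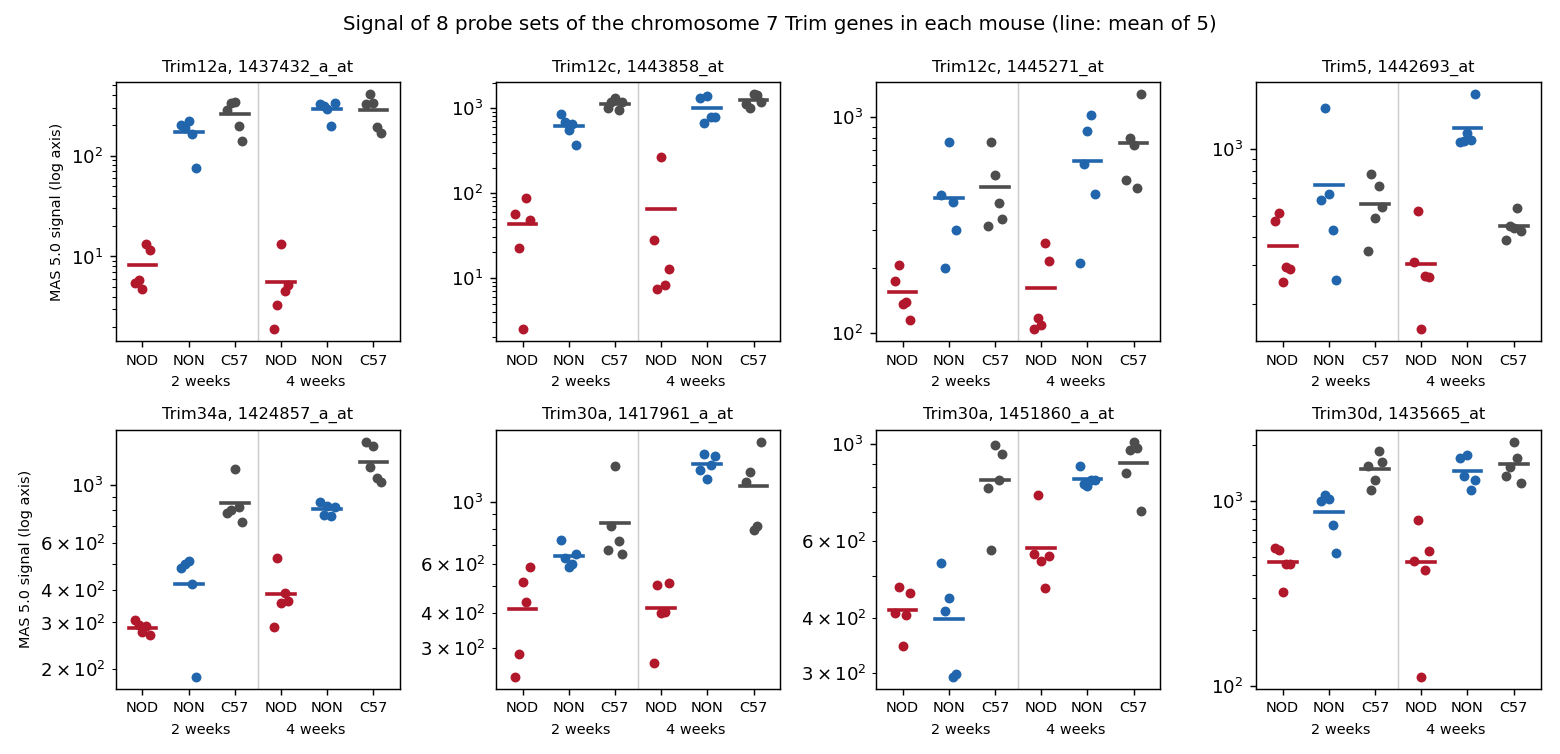
MAS 5.0 signal (log axis) of 8 probe sets of Trim12a, Trim12c, Trim5, Trim34a, Trim30a and Trim30d in each mouse, by strain and age, with a line at the mean of 5 mice. The NOD mice sit below both control strains at both ages for Trim12a and for Trim12c on 1443858_at, where NOD replicate 3 of 4 weeks is at 267.6, and NON sits highest for Trim5 at 4 weeks.

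Of the genes outside the Trim family around the row, 1 had a called low NOD signal. The same interval holds 3 other Trim genes, Trim21 (given below), Trim68 and Trim3. For Trim68 (1455124_at) the NOD minus C57 difference was -1.84 ± 0.47 (SE) at 2 weeks and -0.60 ± 0.43 at 4 weeks. It was not called (limma adjusted p = 0.096 and 0.6). For Trim3 (1451663_a_at) it was 0.08 and -0.25 and was not called either. Between Trim6 and Trim30d no other gene had a kept probe set. Within 2 Mb on either side (gene order from RefSeq, GRCm38.p6), 32 genes outside the family had a kept probe set (49 probe sets), several of them olfactory receptor genes. Of the 49, 1 differed between the strains at 2 weeks (2.04%) and 0 at 4 weeks by limma's F-test, with 3 and 4 at unadjusted p under 0.05 (14.1% and 13.4% of all kept probe sets). The probe set called was 1416559_at of Rrp8, which encodes a nucleolar protein. At 2 weeks the NOD mean was 51 ± 25.5, the NON mean 151 ± 39.2 and the C57 mean 137 ± 17.1 (SD over 5 mice, adjusted p = 0.015), and 73.3 ± 17.7, 148 ± 39.3 and 140 ± 34.7 at 4 weeks (adjusted p = 0.093). The median NOD minus C57 difference of the 49 was 0.13 at 2 weeks and -0.11 at 4 weeks.

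**Figure D3:**
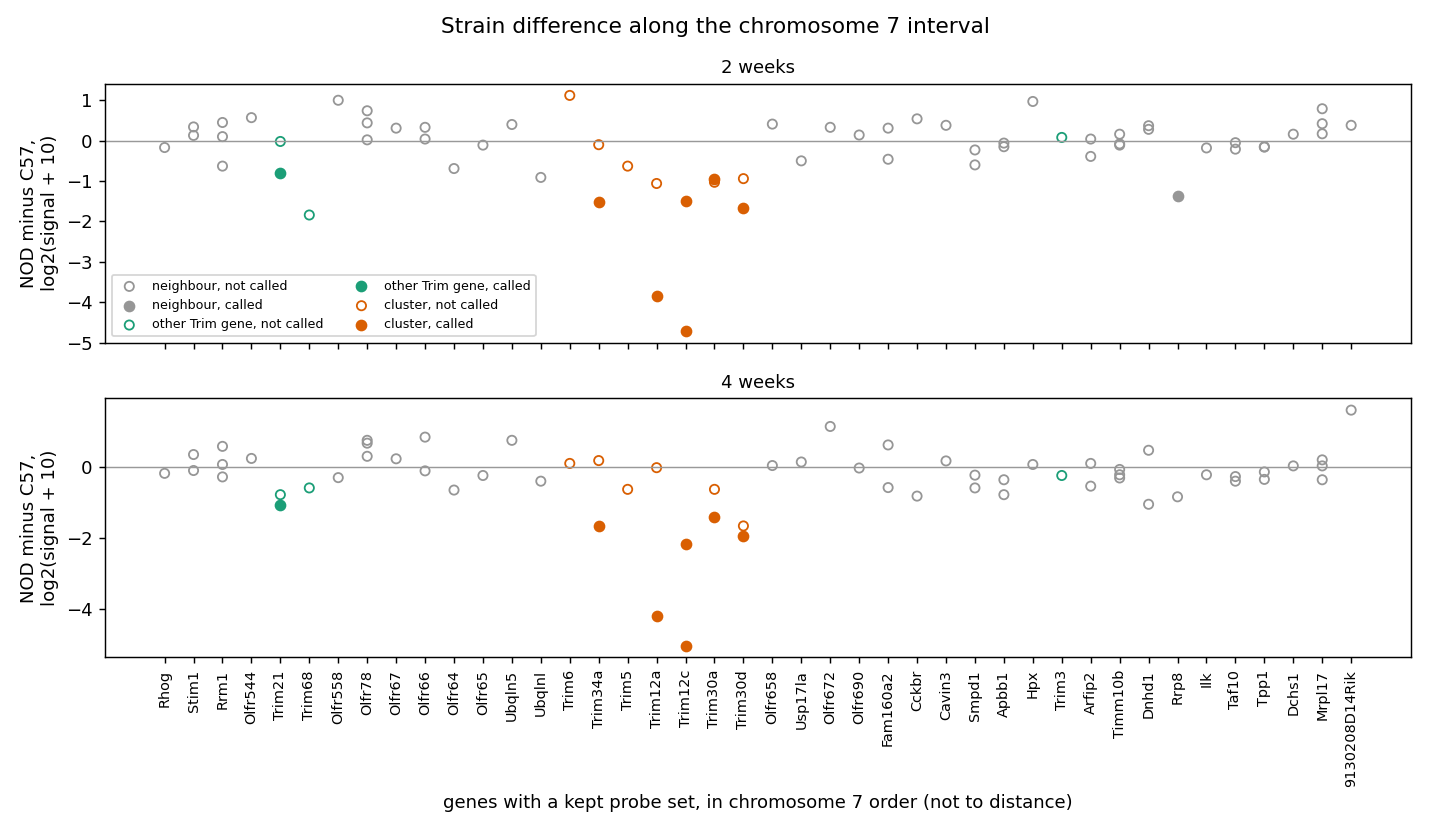
NOD minus C57 difference on the log2(signal + 10) scale (vertical axis) at 2 and 4 weeks for genes with a kept probe set, in their order on chromosome 7 and not to distance. Filled points passed an adjusted p of 0.05 in that contrast, and the filled points from Trim34a to Trim30d lie at -0.95 or below, with Rrp8 (-1.37 at 2 weeks) and Trim21 the only others filled.

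The other 51 Trim genes cover the remaining structural classes of the family, and no member but Trim21 and Trim25 was called in a strain F-test. Those with PRY-SPRY domains (23 genes, 38 kept probe sets) held both calls. They are Trim7, Trim10, Trim11, Trim14, Trim15, Trim16, Trim17, Trim21, Trim25, Trim26, Trim27, Trim35, Trim39, Trim41, Trim43a, Trim47, Trim60, Trim62, Trim65, Trim68, Trim69, Trim72 and Trim75. At unadjusted p under 0.05, 6 of the 38 differed at 2 weeks and 4 at 4 weeks, near the 14.1% and 13.4% of all kept probe sets. No call was made in the PHD-bromodomain class of transcriptional corepressors (Trim24, Trim28, Trim33 and Trim66, 9 probe sets, lowest adjusted p 0.075) or in the NHL repeat class (Trim2, Trim3, Trim32 and Trim71, 8 probe sets, lowest 0.60). The class with COS and fibronectin domains, which binds microtubules (Trim9, Trim36, Trim46 and Trim67, 5 probe sets), had a lowest adjusted p of 0.094, and the transmembrane class (Trim13 and Trim59, 3 probe sets) 0.061. Trim37 (5 probe sets), Trim23 (3) and Trim63 (1) were not called, nor were Trim8, Trim29, Trim31, Trim40, Trim42, Trim44, Trim56, Trim61 and Trim80 (12 probe sets). The group means of the 84 kept probe sets ran from 7.78 to 12400. Trim15, Trim45, Trim46, Trim54 and Trim69 had no probe set that passed the filter.

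Trim21, the cytosolic receptor for antibody-bound virus, lies on the same chromosome outside the row and was highest in C57. The 2 week signals of 1448940_at were 316, 370.1, 320.3, 308 and 307 in the NOD mice, 279.8, 334, 233, 262 and 208 in the NON mice and 546, 488, 648, 618 and 596 in the C57 mice. At 4 weeks they were 305, 482, 183, 387 and 336 in the NOD mice, 415, 531, 432, 363 and 402 in the NON mice and 641, 553, 755, 721 and 860.0 in the C57 mice. All C57 mice were above all mice of the other strains at each age. At 2 weeks NON was 2.2-fold lower than C57 (log2 difference -1.12 ± 0.17 (SE), limma adjusted p = 0.0024) and NOD 1.79-fold lower (-0.81 ± 0.17, adjusted p = 0.03). At 4 weeks NOD was 2.09-fold lower than C57 (-1.09 ± 0.23, adjusted p = 0.037), while the F-test was not passed (adjusted p = 0.061). The calls between NOD and C57 were lost in 9 of 23 alternatives at 2 weeks and in 10 at 4 weeks. NOD and NON differed by 0.31 ± 0.17 at 2 weeks (adjusted p = 0.6). The second Trim21 probe set, 1418077_at, was not called (adjusted p = 0.63 and 0.14), and at 4 weeks its C57 mice again lay above all others.

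Trim25, which ubiquitinates the viral RNA sensor RIG-I, was called on 1 of 3 probe sets, and these did not agree. The 4 week signals of 1426415_a_at were 78.5, 85.5, 146, 122 and 143 in the NOD mice, 293, 339, 188, 294 and 332 in the NON mice and 235, 134, 137, 112 and 135 in the C57 mice. All NON mice lay above all NOD mice (NOD 2.52-fold lower, log2 difference -1.27 ± 0.25 (SE), limma adjusted p = 0.028). This call was lost in 8 of 23 alternatives, among them without NON replicate 1 (-1.26 ± 0.27, adjusted p = 0.068). At 2 weeks its signals were 102, 119.5, 180.2, 142 and 335 in the NOD mice, 274, 199, 237, 205 and 259.9 in the NON mice and 87.3, 74.6, 142, 97.5 and 100.3 in the C57 mice. NON was there 2.34-fold higher than C57 (1.17 ± 0.27, adjusted p = 0.044, lost in 14 of 23 alternatives). On 1419879_s_at and 1425974_a_at the NON mean was the lowest of the 3 strains at 2 weeks (697 ± 212 and 488 ± 102, SD, n = 5), with F-test adjusted p of 0.17 and 0.32. Without NON replicate 2, 1419879_s_at was called lower in NON than in C57 at 2 weeks (-0.89 ± 0.18, adjusted p = 0.021, and 0.093 with that mouse).

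**Figure D4:**
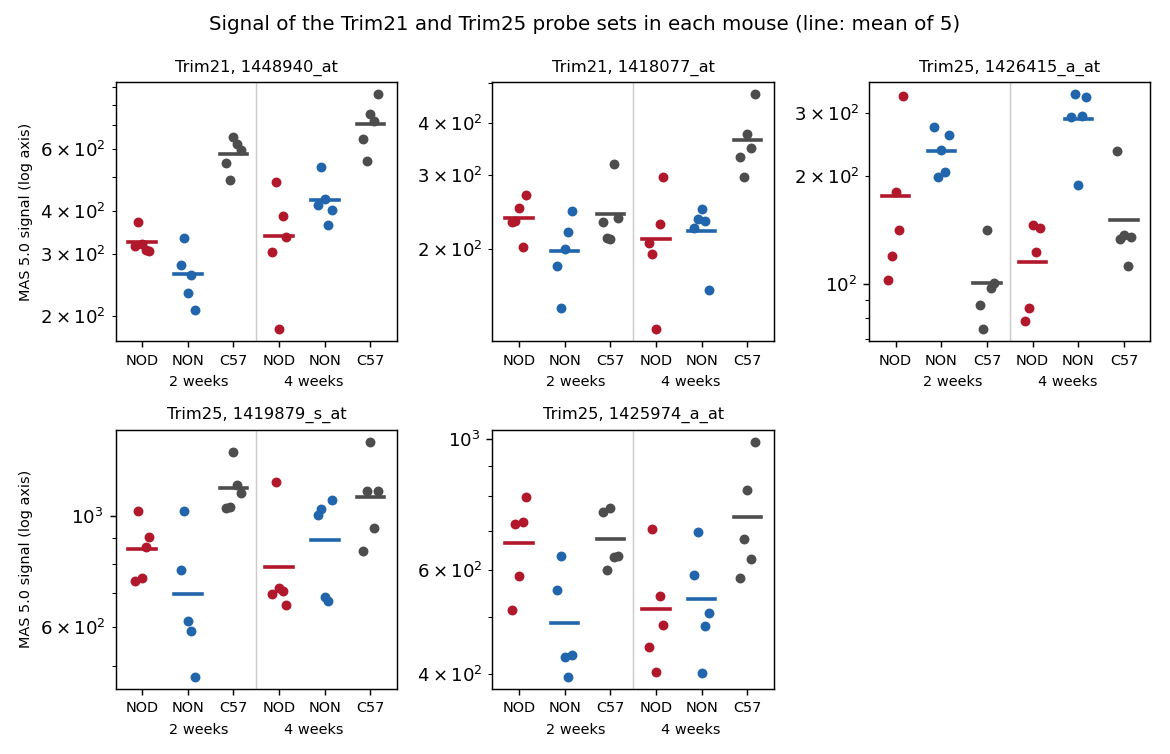
MAS 5.0 signal (log axis) of the 2 Trim21 and 3 Trim25 probe sets in each mouse, by strain and age, with a line at the mean of 5 mice. For Trim21 on 1448940_at the C57 mice lie above all others at both ages, and NON is highest for Trim25 on 1426415_a_at and lowest at 2 weeks on both other probe sets.

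No Trim probe set was called for a change between 2 and 4 weeks in any strain, nor for a strain difference that changed with age. Over all kept probe sets few were called, 0.0157% in NOD, 0.0601% in NON, 0.107% in C57 and 0.00261% in the test of strain by age. At unadjusted p under 0.05 by limma, 1, 7 and 1 of the 12 chromosome 7 probe sets and 6, 7 and 7 of the 84 others differed with age in NOD, NON and C57 (7.49%, 11.1% and 8.22% of all kept probe sets did), and 3 and 5 passed the test of strain by age (6.90%). The nearest to a call were both Trim30a probe sets in NON, with 4 minus 2 week differences of 1.08 ± 0.17 (SE, 1417961_a_at, adjusted p = 0.059) and 1.08 ± 0.21 (1451860_a_at, adjusted p = 0.099). With the spread shared over all 30 mice, an alternative chosen after seeing the data, both were called (adjusted p = 0.022 and 0.0025), as was Trim34a (1424857_a_at, 1.01 ± 0.21, adjusted p = 0.013). The same setting called 1.46% of all kept probe sets in NON (560, in place of 23). In NON all 12 chromosome 7 probe sets had a higher mean log2 value at 4 weeks than at 2 (median 0.78), whereas 7 of the 12 in NOD and 3 of the 12 in C57 had a lower one (medians -0.05 and 0.14). The other 84 had medians of -0.05, 0.00 and 0.09 in NOD, NON and C57, and all kept probe sets had -0.0, 0.0 and 0.03.

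**Figure D5:**
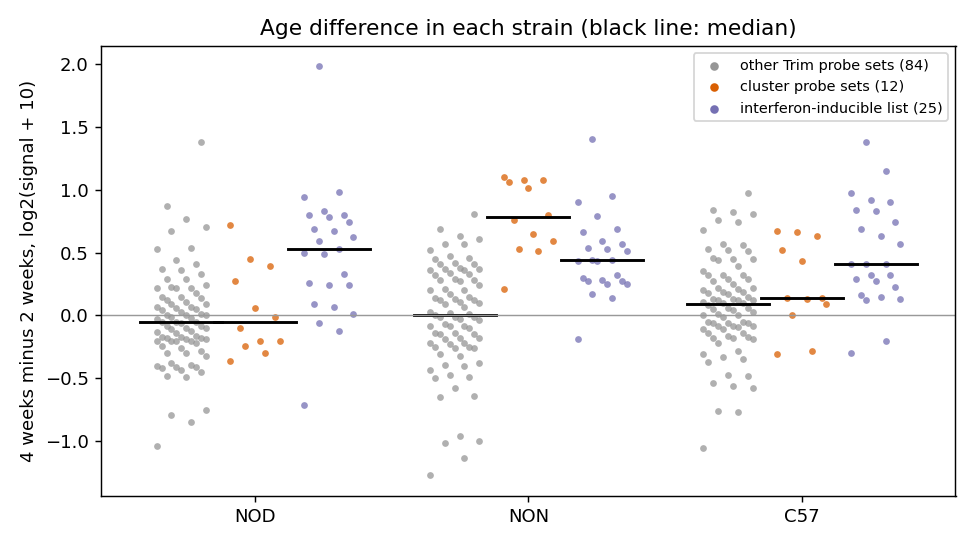
Difference between 4 and 2 weeks on the log2(signal + 10) scale (vertical axis) in each strain, with 1 point per kept probe set and a black line at the median. The 12 chromosome 7 probe sets lie above 0 in NON (median 0.78), while the 25 of the interferon-inducible list have medians of 0.53, 0.44 and 0.41 in NOD, NON and C57.

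Because many Trim genes are induced by interferon, a list of other interferon-inducible genes was set beside them (17 genes, 25 kept probe sets). None of the 25 differed between the strains at 2 weeks and 2 did at 4 weeks by limma's F-test (8%), with 5 and 8 at unadjusted p under 0.05 (14.1% and 13.4% of all kept probe sets). Both called probe sets were highest in C57. Rtp4, a chaperone of membrane receptors, had at 4 weeks a mean of 507 ± 129 in NOD mice, 338 ± 122 in NON mice and 815 ± 142 in C57 mice (SD over 5 mice, adjusted p = 0.041). Xaf1, which promotes cell death, had 1240 ± 377, 1110 ± 306 and 2480 ± 220 on 1443698_at (adjusted p = 0.031). The other Xaf1 probe set, 1443621_at, had 468 ± 110, 358 ± 131 and 359 ± 28.3 at 4 weeks and was not called (adjusted p = 0.6). The medians of the list for NOD minus NON were 0.03 at 2 weeks and 0.05 at 4 weeks, and for NOD minus C57 -0.31 and -0.20. None of the list was called lower in NOD in any contrast. With age the list had positive differences in 22 of 25 probe sets in NOD, 24 in NON and 23 in C57, none of them called. Its medians were 0.53, 0.44 and 0.41, against -0.0, 0.0 and 0.03 over all kept probe sets.

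The partners of Trim proteins in NF-kB and interferon signalling were set beside them as a second list (15 genes, 49 kept probe sets). These are the kinases and adaptors that Trim ligases act on and the ubiquitin-conjugating enzymes they use. None was called by the F-test at either age (5 and 3 at unadjusted p under 0.05, against 14.1% and 13.4% of all kept probe sets). In the pairwise contrasts 1 was called, 1455441_at of Map3k7, the kinase that Tab2 and Tab3 bind. Its 2 week mean was 159 ± 31.2 in NOD mice, 222 ± 27.6 in NON mice and 330 ± 87.5 in C57 mice (SD over 5 mice), a log2 difference of -0.99 from C57 (limma adjusted p = 0.037). The other Map3k7 probe sets were not called in that contrast, with differences of 0.14 (1419988_at), 0.10 (1425795_a_at), 0.64 (1426627_at), 0.00 (1449693_at) and -1.90 (1447801_x_at). The median NOD minus C57 difference of the list was -0.02 at 2 weeks and -0.19 at 4 weeks.

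The spleen leukocytes were not separated, so fewer cells of a type and less RNA per cell cannot be told apart. A strain difference in the bases under a probe set was not tested either. The summed signal of 3 B cell markers ranged from 16700 to 26800 in NOD, 9230 to 22500 in NON and 21600 to 28900 in C57 at 2 weeks, and from 13600 to 25100, 19700 to 24000 and 21900 to 28100 at 4 weeks. That of 4 T cell markers was lowest in NON, at 484 to 1440 against 1680 to 2920 in NOD and 2080 to 3970 in C57 at 2 weeks, and at 2070 to 2520 against 3370 to 3650 and 3160 to 4550 at 4 weeks. Of 3 myeloid markers the sums were 11400 to 18200, 11100 to 13800 and 9670 to 11600 at 2 weeks, and 9610 to 16400, 10400 to 21200 and 8300 to 10900 at 4 weeks, in the same order of strains. Of 4 erythroid markers they were 676 to 5760, 1750 to 7880 and 884 to 2440, and 1290 to 5140, 1220 to 8470 and 425 to 3020. The 1 marker of NK cells (Ncr1) ran from 77.2 to 558 and the 5 of pancreatic acinar cells summed to 244 to 1300 over the 30 mice. No marker used was at 0 in every mouse. The part of cell make-up in the Trim differences was not tested.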

How the data were processed

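The deposited values are MAS 5.0 signal intensities on a linear scale, made by the authors for a 430A and a 430B array of each of 30 mice (60 arrays). MAS 5.0 combines perfect match and mismatch probes and scales each array to a common trimmed mean. The methods name a target of 100, and every deposited array had 250. The study filtered on detection calls, which were not used here. Control probe sets (128) were left out, and for 100 probe sets on both arrays the 430A value was used. Gene symbols came from the platform annotation. Signals were tested as log2(signal + 10) in limma 3.58.1 (R 4.3.3), with the 15 mice of an age for strain contrasts, the 10 of a strain for age and all 30 for strain by age. Low signals have understated differences on this scale. Fold differences are ratios of mean signals. The script was tested on simulated data. Arrays give no counts, so their number limits precision. The family, the gene lists and the comparison were chosen with earlier results of these data known. Named were all probe sets of the chromosome 7 genes and of other members with a call, up to 20. The methods compare strains at each age, and alternatives were another pseudocount (1 or 50), filter, normalization, test or spread, a replicate block and leaving out each mouse.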

Additional observations from a re-analysis of the deposited data

Results flagged for a closer look

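Each group of 5 mice was checked for 1 mouse far from the rest in the 17 named probe sets that were kept (102 groups, of which chance flags about 1 in 20), and 12 groups held such a mouse. For Trim12c (1443858_at), NOD replicate 3 of 4 weeks was at 267.6 against 7.5 to 27.9 in the other 4 mice, and the difference from both controls was called with and without it. For Trim34a (1424857_a_at), NON replicate 5 of 2 weeks was at 186.3 (others 420.1 to 514.9), and C57 replicate 3 of 2 weeks was at 1152.3 (others 721.5 to 827.7). For Trim5 (1442693_at), NON replicate 5 of 4 weeks was at 1767.7 (others 1072.9 to 1175.2). For Trim30a, C57 replicate 3 of 2 weeks was at 1338.5 on 1417961_a_at (others 648.5 to 819.6), and NON replicate 1 of 4 weeks was at 889.7 on 1451860_a_at (others 803 to 827). For Trim30d (1438716_at, not called), C57 replicate 5 of 4 weeks was at 228.1 (others 69.1 to 112.3).

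For Trim21, C57 replicate 4 of 2 weeks was at 319.6 (others 211.5 to 236.7) and NON replicate 5 of 4 weeks at 159.5 (others 224.1 to 248.9) on 1418077_at, and NOD replicate 2 of 2 weeks was at 370.1 (others 307.1 to 320.3) on 1448940_at. For Trim25, NOD replicate 2 of 4 weeks was at 1164.4 on 1419879_s_at (others 661.5 to 717.4) and C57 replicate 1 of 4 weeks at 235.2 on 1426415_a_at (others 111.7 to 137). C57 replicate 3 of 2 weeks was flagged for both Trim34a and Trim30a.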

How the results depend on the processing

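Of 28 pairwise differences called in the Trim family, 15 held in all 23 alternatives tried for each. These 15 were those of Trim12a on 1437432_a_at, of Trim12c on 1443858_at and of Trim30a on 1417961_a_at, together with 5 contrasts of Trim5, Trim21, Trim30d and Trim34a. Over all 28 calls the threshold was lost in 122 of 644 results, every 1 of them from the calls that did not hold throughout. None turned its direction. The counts of Trim probe sets called changed as follows. Here and in the paragraphs below, they are given without the share over all kept probe sets, which can change with the setting too. The shared spread, for example, called 560 of all kept probe sets for age in NON, in place of 23. A changed count is therefore not read as particular to the Trim family. With the spread shared over all 30 mice, 13 in place of 8 differed between the strains at 4 weeks and 2 in place of 1 between NON and C57 at 4 weeks. Without a filter, 2 in place of 4 differed between NON and C57 at 2 weeks. Changes with age in NON numbered 2 with a pseudocount of 50, 1 with a filter at 100, 1 in an unmoderated test and 3 with the shared spread chosen after seeing the data, in place of 0.

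The replicate numbers were not treated as pairs in the main design. The correlation of deviations between same-numbered mice was -0.079 to 0.121 (median 0.042, 30 pairs). In 120 other pairs it was -0.147 to 0.176 (median -0.01). Whether same-numbered mice were more alike was not tested. With a replicate block, 4 in place of 7 Trim probe sets differed between NOD and C57 at 2 weeks, 4 in place of 7 between NOD and NON at 4 weeks, and 0 in place of 1 between NON and C57 at 4 weeks.

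Leaving out 1 mouse at a time, the counts were 4 to 7 (NOD and C57 at 2 weeks, main count 7), 1 to 6 (NON and C57 at 2 weeks, 4), 2 to 3 (NOD and NON at 2 weeks, 2), 5 to 7 (NOD and NON at 4 weeks, 7), 4 to 9 (NOD and C57 at 4 weeks, 7) and 0 to 2 (NON and C57 at 4 weeks, 1). Between NON and C57 the count was 6 without NON replicate 2 of 2 weeks, and 2 without NON replicate 1 of 4 weeks. The strain F-test counts were 5 to 8 at 2 weeks and 6 to 8 at 4 weeks, and no age or strain by age call appeared. The calls lost most often were that of Trim30d from NON at 4 weeks (lost in 17 of 23, adjusted p from 0.002 to 0.12), the 2 week calls of Trim12c on 1445271_at and of Trim34a from NON to C57 (16 of 23 each), and that of Trim30a on 1451860_a_at between NOD and C57 at 2 weeks (15 of 23). The cause of these changes was not tested. Dim probe sets such as 1420648_at, 1426093_at and 1438716_at limit what can be said of their genes.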
